A study of Mus musculus with 6 samples.

Results

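Collagens and laminins are the structural chains of the extracellular matrix. In the deposited table of mouse retinal gene expression, 55 of 49997 genes carry a collagen or laminin chain symbol (Col followed by a type and chain number, or Lama, Lamb or Lamc followed by a chain number). Of these, 50 had at least 10 normalized reads in 3 or more of the 6 libraries and were tested, out of 20277 genes that met the same requirement. They fall into 18 basement membrane members, 11 fibrillar collagens and 21 other collagens. Values are normalized reads: the reads of a gene after division by the size factor of its library.

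RNA was sequenced from single retinas of male mice, in 6 libraries. Those labelled Samd7 KO, 3 in number, carry the genotype label Samd7 knockout (-10A) and were taken at postnatal day 31. The 3 wild-type libraries carry the label c57Bl6/j wt and were taken at postnatal day 36, so genotype and age cannot be told apart. For the knockout mice the labels name no strain. Samd7 encodes a repressor made in photoreceptors, and the comparison is of retinas under the knockout label with wild-type retinas.

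Basement membranes are thin sheets on which epithelia, glial endfeet and vessels rest. Their sheets are built from laminins, which are cross-shaped assemblies of an alpha, a beta and a gamma chain, and from collagen IV, whose chains wind into triple helices and join into a network. In the eye such sheets form the inner limiting membrane at the vitreous, the vascular basement membranes and Bruch's membrane below the pigment epithelium. Fibrillar collagens instead pack into banded fibrils, as in sclera, vessel walls and, for collagen II, the vitreous.

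Recovered reads per library ranged from 44231112 to 62813549. The targeted gene Samd7 was 6.57-fold higher, not lower, in the libraries labelled Samd7 KO, at 57837, 45755 and 44932 normalized reads against 6349, 8141 and 8122 in wild type, so directions are given for the labelled groups. Rod photoreceptor markers, which define most retinal cells, summed to 2861190 to 3134580 normalized reads under the KO label and to 4458860 to 4856320 in wild type. In whole retinas, fewer cells of a type and less RNA per cell cannot be told apart. Whether each retina is from another mouse is not stated, and p-values therefore cover only the spread of these libraries, which may be technical. Wild type 3 stood apart in lens genes, with 7265 summed normalized reads of 10 lens markers against 103 to 168 in the other libraries.

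Of the 50 tested collagen and laminin genes, 7 rose, 3 fell and 40 did not pass the test (limma, Benjamini-Hochberg adjusted p under 0.05 over all tested genes). Across all 20277 tested genes 12.0% were called, 6.79% higher and 5.21% lower; 1376 of 2432 calls were higher, against 2000 of 2810 with total-read scaling and 1392 of 3125 with GC and length trends removed. The risers were the basement membrane chains Col4a5, Lama2 and Lamb2, the fibrillar chains Col1a2 and Col3a1, the fibril-associated Col9a1 and the small collagen Col26a1. The genes that fell were Col4a3, Col4a4 and Col8a2. In 16 of the 50 the KO and wild-type values did not overlap, against 31.1% of all tested genes, a like share. Without Col6a3, which met the minimum only through the KO libraries, the count was 15 of 49. The log2 fold changes of the 40 genes that did not pass ran from -0.68 to 1.67, the highest being that of Col6a3. The count was 10 with edgeR and TMM factors and 12 with DESeq2.

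**Figure D1:**
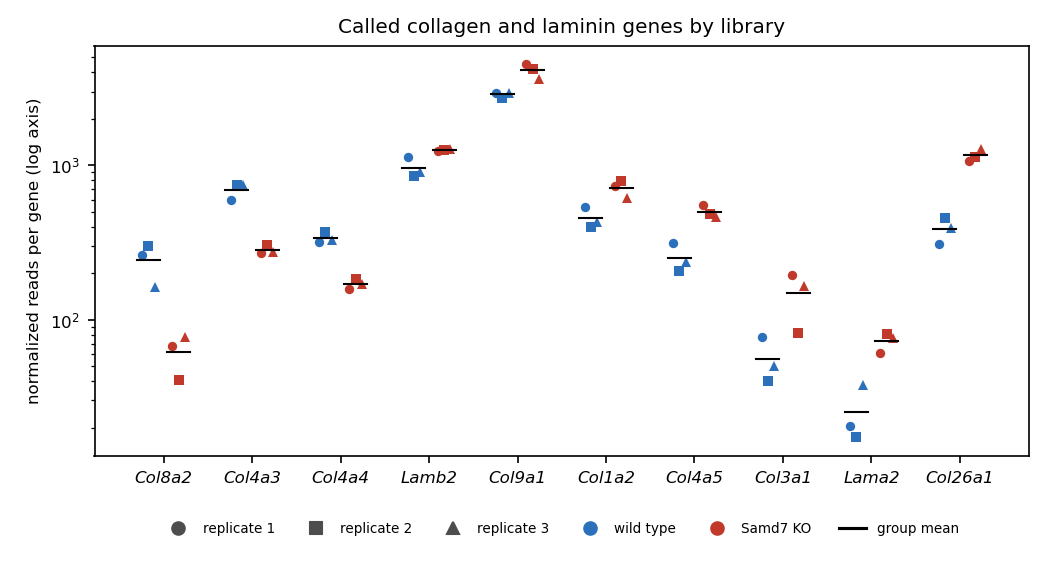
Normalized reads per gene on a log axis for the 10 called genes, ordered by log2 fold change, with wild type in blue, Samd7 KO in red, 1 symbol per replicate number and a bar at each group mean. In all 10 genes the KO points lie wholly above or wholly below the wild-type points, with Col8a2, Col4a3 and Col4a4 lower and the other 7 higher.

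Collagen IV changed in opposite directions within the family. Col4a3, 1 of the chains of the mature collagen IV network of kidney, lung and eye that is altered in Alport syndrome (chromosome 1, 82586921 to 82722059, GRCm38), had 269, 304 and 275 normalized reads under the KO label, against wild-type values of 597, 747 and 741. The highest KO library lay well under the lowest wild-type library. The fall was 2.46-fold (log2 fold change -1.29, SE 0.13, limma adjusted p = 2.88e-05). Col4a4, its partner in the same helix (chromosome 1, 82448419 to 82587034), had 158, 184 and 171 against 317, 370 and 328, again without overlap. It fell 1.98-fold (log2 fold change -0.98, SE 0.13, limma adjusted p = 4.75e-04).

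Col4a5, the X-linked chain that winds with Col4a3 and Col4a4 and also with Col4a6 (chromosome X, 141475370 to 141689236), went the other way. Its normalized reads were 553, 483 and 462 under the KO label and 312, 207 and 238 in wild type, with every KO library above every wild-type library. The rise was 1.98-fold (log2 fold change 1.0, SE 0.16, limma adjusted p = 0.00131). Col4a6, the other X-linked chain, had 129, 219 and 106 against 117, 73.6 and 84.7 normalized reads. KO 2 was the highest and the groups overlapped, so Col4a6 was not called (limma adjusted p = 0.13, with a log2 fold change of 0.67 and a 95% interval of 0.09 to 1.25).

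The 2 chains of the widespread early network, Col4a1 and Col4a2, were nearly level. Col4a1 had 971, 846 and 956 normalized reads under the KO label and 812, 688 and 972 in wild type (log2 fold change 0.18, 95% interval -0.10 to 0.46). Col4a2 had 1447, 1156 and 1399 against 1336, 1224 and 1503 (log2 fold change -0.02, 95% interval -0.27 to 0.22). Both pairs of groups overlapped. The sign of Col4a2 turned with scaling to total reads (0.033).

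Read per kilobase of the longest GENCODE transcript, the order of the collagen IV chains differed between the groups. In wild type the levels per kb were 210 ± 21.8 for Col4a2, 125 ± 21.5 for Col4a1, 81.2 ± 9.90 for Col4a3, 38.6 ± 8.29 for Col4a5, 33.5 ± 2.77 for Col4a4 and 13.8 ± 3.41 for Col4a6 (SD, n = 3 each). The Col4a4 mean lay within the SD around the Col4a5 mean there. Under the KO label Col4a5 took the place after Col4a1, at 76.4 ± 7.29 per kb, and Col4a3 was at 33.0 ± 2.19. The ratio of Col4a5 to Col4a3 per kb was 2.69, 2.08 and 2.20 in the KO libraries and 0.684, 0.362 and 0.421 in wild type, so that the more abundant chain of the pair changed in every library. The summed collagen IV level per kb overlapped between groups, at 468 to 522 under the KO label and 460 to 548 in wild type.

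The collagen IV genes lie in head-to-head pairs that are read outward from a shared stretch of DNA. In the GENCODE annotation of GRCm38 the start of Col4a3 (plus strand) and that of Col4a4 (minus strand) are 72 bases apart on chromosome 1, those of Col4a5 (plus) and Col4a6 (minus) are 1309 bases apart on chromosome X, and those of Col4a1 and Col4a2 are 21 bases apart on chromosome 8. Both members of the Col4a3 and Col4a4 pair fell, and their RefSeq records share a short stretch at the starts, where reads cannot be assigned without strand. The same holds for the Col4a1 and Col4a2 pair, whose starts also overlap by 22 bases in the GENCODE annotation. The RefSeq promoter windows (mostly upstream of a start and reaching just past it, GRCm38.p6) are shown for the pairs whose members were called, because the start of Col4a3 lies inside the window of Col4a4. Col4a4 is chr1:82586800-82587099 on the minus strand, Col4a5 chrX:141475169-141475468 on the plus strand and Col4a6 chrX:141474027-141474326 on the minus strand. Capitals mark matches, on either strand, to the CCAAT box (CCAAT) and the GC box (GGGCGG), which do not overlap each other here.
Col4a4: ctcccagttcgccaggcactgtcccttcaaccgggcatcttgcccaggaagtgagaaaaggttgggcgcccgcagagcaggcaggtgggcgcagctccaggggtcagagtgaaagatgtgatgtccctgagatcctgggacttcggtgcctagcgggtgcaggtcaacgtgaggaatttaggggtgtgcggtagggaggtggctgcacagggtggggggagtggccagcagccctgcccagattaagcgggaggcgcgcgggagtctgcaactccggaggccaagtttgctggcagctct
Col4a5: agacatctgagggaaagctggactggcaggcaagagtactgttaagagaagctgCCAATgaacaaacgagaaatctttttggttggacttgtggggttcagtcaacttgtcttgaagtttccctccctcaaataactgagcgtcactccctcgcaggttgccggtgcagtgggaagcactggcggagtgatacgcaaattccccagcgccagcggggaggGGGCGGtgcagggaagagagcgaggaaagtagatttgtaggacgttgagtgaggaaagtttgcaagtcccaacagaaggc
Col4a6: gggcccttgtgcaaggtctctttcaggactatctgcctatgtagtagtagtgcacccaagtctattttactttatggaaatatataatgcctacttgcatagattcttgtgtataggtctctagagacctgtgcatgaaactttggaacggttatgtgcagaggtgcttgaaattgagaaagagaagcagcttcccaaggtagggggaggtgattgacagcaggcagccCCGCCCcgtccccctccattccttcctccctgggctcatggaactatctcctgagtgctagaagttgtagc
The window of the Col4a3 and Col4a4 pair held neither motif, that of Col4a5 held 1 of each, and that of Col4a6 held 1 GC box. Of 32851 promoter windows of this length, 37.4% held a CCAAT match and 35.7% a GC box match. The motif TATAAA, held by 13.6% of windows, and TAATCC, the core bound by the photoreceptor factor CRX, held by 7.06%, had no match in these windows. The GC content of the windows was 63.3%, 52.7% and 48.3% in the order printed.

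Among the laminins, 2 of 10 tested chains rose and 0 fell (20.0% called, against 12.0% of all tested genes). Of the 10 log2 fold changes 8 lay above 0, with a median of 0.32, against 10191 of 20277 over all tested genes. Lama2, the alpha chain of muscle and perivascular laminin whose loss causes a congenital muscular dystrophy (chromosome 10, 26981285 to 27617191), had 60.9, 80.9 and 76.0 normalized reads under the KO label against 20.5, 17.3 and 37.7 in wild type. The KO libraries all lay above wild type 3, the highest wild-type library. The rise was 2.89-fold (log2 fold change 1.56, SE 0.30, limma adjusted p = 0.00509). Lama2 is a low gene, with 211 reads over the KO libraries and 80 over wild type.

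Lamb2, the beta chain of the mature inner limiting membrane and of synaptic laminins (chromosome 9, 108479847 to 108490530), had 1245, 1256 and 1272 against 1132, 854 and 901 normalized reads. The 3 KO libraries were nearly equal, and wild type 1 came closest to them. It rose 1.31-fold (log2 fold change 0.40, SE 0.11, limma adjusted p = 0.0398), a call that ended in 6 of 18 alternatives, including edgeR with upper-quartile factors (adjusted p = 0.0551) and omission of KO 2 (0.0687), KO 3 (0.124), wild type 2 (0.168) or wild type 3 (0.175). Over all 18 alternatives its adjusted p ranged from 0.00260 to 0.175.

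The partner chains Lamb1 and Lamc1, which pair with most alpha chains, did not pass the test. Lamb1 had 462, 564 and 490 normalized reads under the KO label against 402, 379 and 382, and Lamc1 640, 711 and 635 against 553, 538 and 558. Neither pair of groups overlapped, and the 95% intervals lay above 0, but the log2 fold changes of 0.38 (95% interval 0.12 to 0.63, limma adjusted p = 0.0596) and 0.27 (0.04 to 0.49, adjusted p = 0.12) did not pass after adjustment over all genes. Lama4, the endothelial alpha chain, had 74.5, 93.3 and 79.9 against 48.8, 34.6 and 66.8 (log2 fold change 0.75, limma adjusted p = 0.0769). Lama5 and Lama1, alpha chains of the inner limiting membrane, were close to level, with log2 fold changes of 0.01 (95% interval -0.31 to 0.33) and -0.07 (-0.62 to 0.48), whose signs turned in 9 and 2 of 18 alternatives. Lamc3, a gamma chain of the retinal matrix, was at -0.16 (-0.48 to 0.17). The Lamc3 groups did not overlap, with the KO libraries lower, at 130, 148.3 and 141 against 151, 169 and 148.7 normalized reads. Lama3, an alpha chain of epithelial laminin, had 20.7 to 31.8 normalized reads over the libraries.

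Per kb, the beta chains Lamb2 and Lamb1 and the gamma chain Lamc1 stood above every alpha chain. The gamma chain Lamc3 did not, at 26.6 ± 1.89 in wild type, under Lama5. In wild type Lamb2 was at 171 ± 26.4, Lamc1 at 72.1 ± 1.38 and Lamb1 at 67.0 ± 2.18 (SD, n = 3 each). Lama5 led the alpha chains at 41.7 ± 8.15, followed by Lama1 at 17.3 ± 3.89, Lama4 at 8.28 ± 2.67, Lama2 at 2.62 ± 1.14 and Lama3 at 2.26 ± 0.37. Under the KO label Lama2 reached 7.55 ± 1.08 and remained under Lama5, at 41.5 ± 2.27. The summed laminin level per kb was 488, 542 and 506 in the KO libraries and 447, 383 and 413 in wild type, with no overlap.

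**Figure D2:**
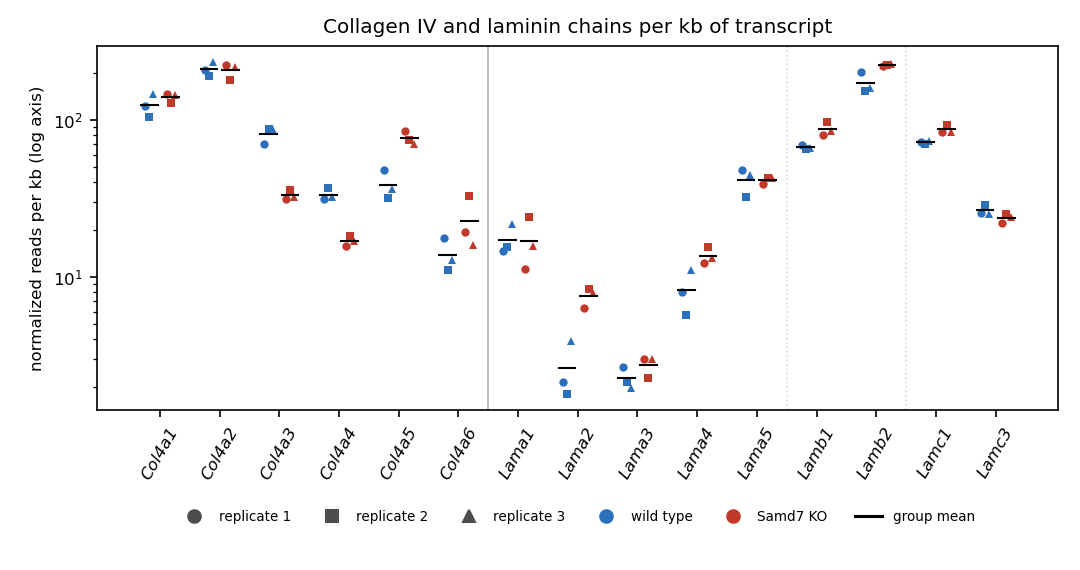
Normalized reads per kb of the longest transcript, on a log axis, for the 6 collagen IV chains (left of the solid line) and 9 laminin chains, with points for libraries and bars for group means. Col4a3 and Col4a4 lie lower and Col4a5 and Lama2 higher in the red KO points, while Col4a1, Col4a2 and Lama5 overlap.

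The multiplexins, collagens of the basement membrane zone, did not pass. Col18a1, the source of endostatin and the basement membrane collagen with the highest level per kb (555 ± 152 in wild type), had 4457, 4209 and 3399 normalized reads under the KO label and 3971, 2274 and 3075 in wild type. The groups overlapped through wild type 1 (limma adjusted p = 0.153, log2 fold change 0.40 with a 95% interval of 0.03 to 0.77), and Col18a1 was called without wild type 1 (0.0197). Col15a1 had 7.53 to 17.3 normalized reads.

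Fibrillar collagens had 2 risers and 0 genes that fell among 11 (18.2% called, against 12.0% of all tested genes). Col1a2, a chain of type I collagen (chromosome 6, 4505618 to 4541543), had 737, 791 and 610 normalized reads under the KO label against 541, 396 and 429 in wild type. It rose 1.57-fold (log2 fold change 0.65, SE 0.14, limma adjusted p = 0.0111). Col3a1, the collagen of vessel walls and loose connective tissue (chromosome 1, 45311538 to 45349706), had 195, 81.9 and 166 against 77.9, 40.0 and 49.9. It rose 2.64-fold (log2 fold change 1.35, SE 0.32, limma adjusted p = 0.0184), although KO 2 stood just above wild type 1.

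Neither fibrillar call held in every alternative. Without wild type 2 or wild type 3 both ended, with adjusted p of 0.0557 and 0.0578 for Col1a2 and 0.0783 and 0.0680 for Col3a1, and Col3a1 also ended without KO 3 (0.0801). Over the 18 alternatives the adjusted p ranged from 2.64e-04 to 0.0578 for Col1a2 and from 1.91e-04 to 0.0801 for Col3a1.

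Col1a1, which supplies most strands of the type I helix, did not move with Col1a2. Its normalized reads were 53.0, 23.8 and 49.1 under the KO label and 43.6, 32.5 and 51.8 in wild type (log2 fold change -0.08, 95% interval -0.79 to 0.63). The Col1a2 level per kb was 15.4, 36.8 and 13.8 times that of Col1a1 in the KO libraries and 13.7, 13.5 and 9.19 times in wild type. Col1a2 thus exceeded its partner in all 6 libraries.

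Col2a1, the chain of cartilage and vitreous collagen, was the fibrillar gene with the highest level per kb (698 ± 51.1 in wild type). It had 3810, 2679 and 3400 normalized reads under the KO label and 3772, 3649 and 3272 in wild type, with KO 2 the lowest of all (log2 fold change -0.13, 95% interval -0.38 to 0.13). Col11a2 and Col5a1, chains of the minor collagens that regulate fibril width, also had their lowest value in KO 2. Col11a2 had 806, 171 and 569 against 516, 680 and 632, and Col5a1 586, 345 and 554 against 516, 503 and 516. Neither passed (limma adjusted p = 0.484 and 0.803), and without KO 2 the signs of Col2a1, Col11a2 and Col5a1 all turned, to 0.017, 0.16 and 0.155.

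The 2 classes were set side by side. Of the 18 basement membrane genes 3 rose and 2 fell (27.8% called), of the 11 fibrillar genes 2 rose and 0 fell (18.2%), and among all tested genes 12.0% were called. The median log2 fold change was 0.27 for basement membrane genes, -0.02 for fibrillar genes and 0.00 over all tested genes, and 13 of 18 against 5 of 11 values lay above 0. Without KO 2 the medians were 0.27 and 0.28, and 10 of 11 fibrillar values lay above 0, so that the distance between the classes was not present without that library. The fibrillar median was 0.04 with total-read scaling and 0.10 with limma-voom, and the basement membrane median was 0.15 with GC and length trends removed. The ratio of the summed basement membrane level to the summed fibrillar level per kb was 1.44, 2.12 and 1.48 in the KO libraries and 1.5, 1.14 and 1.48 in wild type. The groups overlapped, with KO 2 the highest and wild type 2 the lowest.

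**Figure D3:**
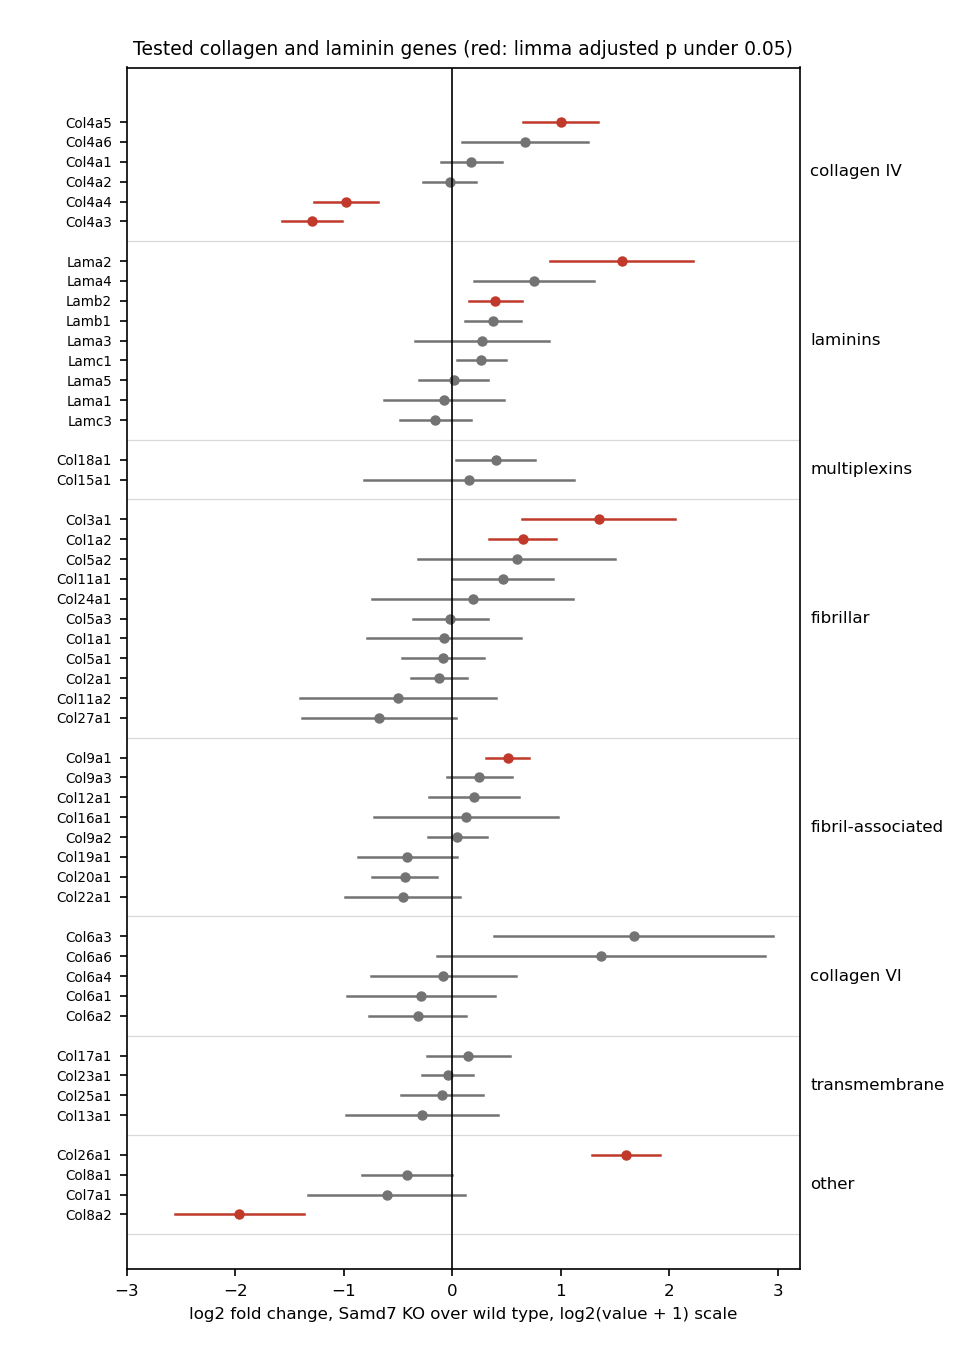
Log2 fold change of Samd7 KO over wild type with its 95% limma interval for 49 of the 50 tested genes, grouped by class, with called genes in red and the others in grey. Collagen IV holds calls on both sides of 0, while the laminin and fibrillar calls lie to the right.

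KO 2 stood apart from the other KO libraries in the collagens. It was the lowest KO library for 9 of 11 fibrillar genes, 14 of 21 other collagens and 3 of 18 basement membrane genes, and for 37.9% of all tested genes. The log2 ratio of KO 2 to the mean of KO 1 and KO 3 had a median of -0.72 over fibrillar genes, 0.14 over basement membrane genes and -0.01 over all tested genes. Col6a1, a chain of the beaded filaments of collagen VI, had 3291, 1002 and 2469 normalized reads under the KO label and 2367, 2527 and 2480 in wild type. Col7a1, the anchoring fibril collagen, had 778, 218 and 461 against 575, 706 and 676. Fibrillar transcripts had a median GC content of 58.0% and basement membrane transcripts 53.3%. Over 18216 tested genes with a transcript, the deviation of KO 2 from its group mean had a Pearson r of -0.30 with GC content and of 0.25 with log2 length, against 0.16 and -0.30 for KO 1. Over the 50 members the r of the KO 2 ratio with GC content was -0.36. These are descriptions across genes of the same libraries, and the part of base composition in the results was not tested.

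**Figure D4:**
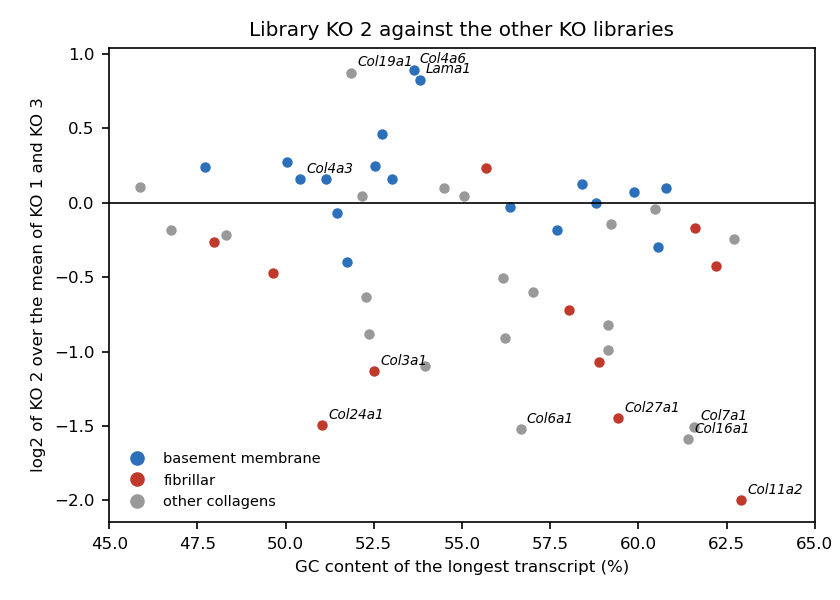
Log2 ratio of library KO 2 to the mean of KO 1 and KO 3 (vertical axis) against the GC content of the longest transcript (horizontal axis), 1 point for each of the 50 tested genes. All but 1 of the 11 red fibrillar points lie below 0, down to -2.0 for Col11a2, while the blue basement membrane points run from -0.40 to 0.89.

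Among the fibril-associated collagens, which decorate fibrils, 1 of 8 rose and 0 fell. This share was near that of all tested genes, of which 12.0% were called. Col9a1, a chain of the collagen IX that coats collagen II fibrils in vitreous and cartilage (chromosome 1, 24177589 to 24252738), had 4508, 4204 and 3633 normalized reads under the KO label against 2943, 2744 and 2952 in wild type. The wild-type libraries were tight and the lowest KO library exceeded them all. The rise was 1.43-fold (log2 fold change 0.51, SE 0.09, limma adjusted p = 0.00290). Its partners Col9a2 and Col9a3 did not pass, with log2 fold changes of 0.05 (95% interval -0.22 to 0.32) and 0.25 (-0.05 to 0.55). The ratio of Col9a1 to Col9a2 per kb was 2.24, 2.81 and 2.36 under the KO label and 1.65, 1.81 and 1.9 in wild type. In wild type the levels per kb were 751 ± 30.7 for Col9a1, 462 ± 77.8 for Col9a3 and 422 ± 37.1 for Col9a2. Col20a1 had 832, 553 and 740 against 971, 934 and 932 normalized reads, without overlap, and did not pass (log2 fold change -0.44, limma adjusted p = 0.0616).

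Collagen VI had 5 tested chains and 0 calls, where 12.0% of all tested genes were called. Col6a1 and Col6a2 did not pass (log2 fold changes -0.29 and -0.32). Col6a3, the third chain of the usual helix, had 13.5, 16.6 and 17.3 normalized reads against 7.70, 7.58 and 0.94. It met the minimum only through the KO libraries, so its difference (limma adjusted p = 0.0910) supports nothing. The transmembrane collagens had 4 tested genes and 0 calls. Col23a1 led them, at 820 ± 131 normalized reads per kb in wild type, with a log2 fold change of -0.04 (95% interval -0.28 to 0.19).

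Of the other collagens, Col26a1 and Col8a2 had the largest changes. Col26a1, a small secreted collagen-like protein first described in testis and ovary (chromosome 5, 136741759 to 136883376), had 1073, 1136 and 1269 normalized reads under the KO label against 307, 456 and 395 in wild type. The rise was 3.0-fold (log2 fold change 1.60, SE 0.14, limma adjusted p = 1.30e-05). Its level per kb was 417 ± 36.0 under the KO label and 139 ± 26.9 in wild type.

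Col8a2, a short-chain network collagen of Descemet's membrane and subendothelial matrix (chromosome 4, 126286794 to 126314330), had 67.7, 40.4 and 77.0 normalized reads under the KO label and 264, 299 and 164 in wild type. The highest KO library was under the lowest wild-type library, wild type 3. The fall was 3.93-fold (log2 fold change -1.96, SE 0.27, limma adjusted p = 5.04e-04). Its partner Col8a1 had 272, 235 and 263 against 430, 381 and 245 and did not pass (log2 fold change -0.42, limma adjusted p = 0.185).

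Markers of the pigment epithelium, a tissue that adjoins the retina and lays down Bruch's membrane, were lower too. Of 17 listed and tested 11 fell and 0 rose (64.7% called, against 12.0% of all tested genes), with log2 fold changes of the 11 from -2.26 to -0.80, and 0 were at 0 in all libraries. The list summed to 14950 to 15503 normalized reads under the KO label and 16812 to 20369 in wild type, with Otx2, which the neural retina also expresses, as its largest part. Rpe65, the retinoid isomerase that defines this tissue, had 65.5, 41.5 and 162 normalized reads under the KO label and 427, 409 and 221 in wild type. KO 2 was the lowest and KO 3 the highest KO library for both Rpe65 and Col8a2, and wild type 3 the lowest wild-type library for both. For Col4a3 KO 2 was the highest KO library and wild type 1 the lowest wild-type library. The part of pigment epithelium in the falls was not tested.

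Markers of other cells were counted the same way, against 12.0% of all tested genes called. Fibroblast markers other than the collagens themselves had 1 riser (Pdgfra, 1.53-fold, limma adjusted p = 0.0120) and 0 that fell among 7 tested of 9 listed (14.3%, near the share of all genes). They summed to 5482 to 8151 normalized reads under the KO label and 4415 to 7735 in wild type. Lum and Dpt, proteins of connective tissue, had at most 4.33 normalized reads in any library, and Dpt was at 0 in all KO libraries. Dcn, also a protein of connective tissue, had 9.74 to 26.0 normalized reads over the libraries. It did not pass (log2 fold change 0.46, limma adjusted p = 0.470). Endothelial markers had 3 risers of 14 (21.4%), Ptprb (2.34-fold), Vwf (2.17-fold) and Kdr (1.79-fold), but 7 of the 14 log2 fold changes lay below 0. They summed to 10209 to 11727 against 7626 to 9460. Pericyte and vascular muscle markers had 1 riser of 10 tested of 12 listed (10%, near the share of all genes; Abcc9, 1.76-fold), with 1 at 0 in all libraries, and summed to 3393 to 3687 against 2642 to 2993. Astrocyte markers had 3 risers of 7 (42.9%), Gfap (3.72-fold), Slc1a3 (1.26-fold) and Pdgfra, already counted with the fibroblasts. They summed to 22680 to 24199 against 14247 to 15179 over the whole list. Müller glia, whose endfeet border the inner limiting membrane, had 5 risers and 1 fall among 14 (42.9%), and sums that overlapped, at 313073 to 336440 against 304907 to 339709. Red blood cell markers rose in 5 of 5 tested, at 5667 to 8310 against 1467 to 2232. The part of these cells in the collagen and laminin values was not tested.

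Genes that bind, receive, make or cleave collagens and laminins were also counted. Among 20 partners of the basement membrane 6 rose and 1 fell (35.0% called, against 12.0% of all tested genes). Sparc, a collagen-binding glycoprotein, rose 1.57-fold, with mean normalized reads of 37859 ± 2366 against 24044 ± 1655 (SD of 3 libraries; limma adjusted p = 7.28e-05). Agrn, the proteoglycan that ties laminin to dystroglycan, rose 1.49-fold (limma adjusted p = 0.00485), and Nid1, the link between laminin and collagen IV, rose 2.17-fold to 125 ± 18.6 (adjusted p = 0.0102). Tinagl1, a matrix glycoprotein, fell 2.7-fold to 373 ± 23.6 (limma adjusted p = 7.23e-06). Of 14 receptors 14.3% were called, a share near that of all genes: Itgb1, the common beta subunit of the collagen and laminin integrins, rose 1.34-fold and Rpsa, a ribosomal protein also known as a laminin receptor, fell 1.21-fold (limma adjusted p = 0.00710 and 0.0170).

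Collagen-making enzymes and chaperones had 4 risers and 0 that fell among 20 (20.0% called, against 12.0% of all tested genes). They were the lysyl hydroxylases Plod2 (1.91-fold) and Plod1 (1.35-fold), the prolyl hydroxylase family member P3h3 (1.9-fold) and the collagen chaperone Serpinh1 (1.54-fold to 1756 ± 90.0, limma adjusted p = 8.59e-04). Of 12 tested processing and cross-linking genes 4 rose and 0 fell (33.3%). Pcolce, which speeds removal of the procollagen C-propeptide, rose 4.05-fold, from 882 ± 143 to 3576 ± 558 (limma adjusted p = 9.68e-07). Bmp1, the protease it assists, rose 1.42-fold, Adamts3 1.51-fold and Tgm2 1.32-fold. Matrix proteases and their inhibitors had 2 risers of 15, Adamts1 (1.96-fold) and Mmp17 (1.32-fold). Small proteoglycans and fibril glycoproteins had 2 of 14, Prelp (1.43-fold) and Postn (1.68-fold, called in 7 of 18 alternatives). The shares called in these last lists, 13.3% and 14.3%, were near that of all genes. 

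The 5 genes left out of the test were Col10a1, Col14a1, Col28a1, Col6a5 and Lamb3, which had at least 10 normalized reads in at most 2 libraries. Just outside the minimum lay Lamb3, with 6.77, 13.5 and 9.62 normalized reads under the KO label and 6.84, 7.58 and 16.0 in wild type. Just inside lay Col15a1, with 14.7, 11.4 and 8.66 against 7.70, 17.3 and 7.53, and Col6a6, with 10.2, 6.22 and 14.4 against 0.86, 2.16 and 11.3. Col28a1 had 7.90, 6.22 and 7.70 against 2.57, 3.25 and 0 normalized reads, without overlap and under the minimum in every library. Col14a1 had its highest value, 35.7, in wild type 2, and Col10a1 and Col6a5 overlapped between the groups. The 5 genes were not tested.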

How the data were processed

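Polyadenylated RNA of 6 retinas was copied to cDNA by a low-input kit and amplified, per the labels' protocols; no molecular identifiers are described there, so amplified copies count as reads. The submitters' processing notes name DRAGEN, cutadapt 3.0, STAR 2.7.3a, HTSeq 0.12.4, SAMtools 1.9, DESeq2 and the builds GRCm38 and mm10; which tool did which step, and any strand setting, were unstated in those notes. The deposited signal is the authors' read count per gene divided by a size factor, per the file headers and values. Also deposited, per the file headers, are the authors' log2 fold changes, Wald scores, p-values and adjusted p-values, which were not used for the results.

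Dividing by the worth of 1 read gave whole reads (within 0.01) for 100% of 166478 values. The main test was limma-trend (limma 3.58.1, R 4.3.3) on log2(value + 1), two-sided, over genes reaching 10 normalized reads in 3 or more libraries, Benjamini-Hochberg adjusted, called under 0.05. Fold changes are ratios of group means. Log2 fold changes are differences between the group means of log2(value + 1), so they need not equal the log2 of the fold change. The added 1 shrinks the log2 fold change of low genes. Alternatives used edgeR 4.0.16, DESeq2 1.42.0, limma-voom, other scalings, filters and pseudocounts, and omission of each library; tests were checked on simulated data. Removal of GC and length trends (89.8% of tested genes matched a GENCODE transcript) was chosen after seeing the data. Chi-square per degree of freedom between replicates was 6.78 to 33.0, above counting noise in every pair. All 55 symbols matched RefSeq (GRCm38.p6), and 40 had a promoter sequence.

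The members and gene lists were chosen with earlier results of these data known. Named with all library values were called members and the 4 basement membrane and 4 fibrillar members with the highest level per kb; up to 4 called genes per list were named. Col4a6, Col1a1, Lamb1, Lamc1, Lama4, Lama1, Lama3, Lama5, Lamc3, Col6a1, Col6a2, Col6a3, Col6a6, Col7a1, Col8a1, Col9a2, Col9a3, Col15a1, Col20a1, Col23a1, Lamb3, Col10a1, Col14a1, Col28a1, Col6a5, Rpe65, Otx2, Lum, Dpt and Dcn were named after their values were seen. Of the tested members, 1 is counted in the totals and is not reported here by itself.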

Additional observations from a re-analysis of the deposited data

How the results depend on the processing

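Of the 10 called genes, 7 (Col26a1, Col4a3, Col4a4, Col4a5, Col8a2, Col9a1 and Lama2) were called in all 18 alternatives, and 9 further members were called in at least 1. Calls among all members ranged from 7 to 14. Fibrillar calls, 2, were 0 with the stricter threshold of 0.01, and 0 (without wild type 2 or 3) to 3 (without KO 1) with a library left out, with 1 without KO 3. The count over all genes, 2432, became 4650 with limma-voom (sample quality weights), 1189 under the threshold of 0.01, and ranged from 1313 (without wild type 3) to 3247 (without KO 1), with 1497 without KO 3 and 1470 without wild type 2. The basement membrane median log2 fold change, 0.27, was 0.15 with GC and length trends removed. The fibrillar median, -0.02, ranged from -0.11 to 0.28 with a library left out, the highest without KO 2. Except for the threshold, the cause was not tested.

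Among the 40 members that were not called, 18 took the opposite sign in at least 1 alternative, most often Lama5 (9 of 18), and 0 of the 10 called members did. Among the basement membrane and fibrillar genes with the highest level per kb, these were Col4a2 (0.033 with total-read scaling, and -0.094 to 0.076 with a library left out), Col5a1 (0.038 with limma-voom, and -0.23 to 0.155), Col2a1 (-0.24 to 0.017) and Col11a2 (-0.95 to 0.16). With the replicate number as a block, 9 members and 1624 genes were called; of the calls among members, only that of Lamb2 ended. Same-numbered libraries deviated from their group means with correlations of -0.18, -0.13 and -0.01, so the numbers were not taken to pair the samples, and 0 of the 3 KO libraries correlated best with its own number.

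Depth limits members with few reads: the tested members had 45 to 27710 reads over the 6 libraries.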
